A study of Mus musculus with 22 samples.

Results

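The data describe how the response of mammary cells to alveolar macrophages differed between early lesion cells and primary tumor cells of one mouse breast cancer model. A response is the log2 fold change of a gene from mono-culture to co-culture. The quantity under study is the early lesion response minus the primary tumor response, an interaction of stage and culture, and positive values mean that a gene was moved further up, or less far down, in early lesion cells. It rests on 12 of the 22 libraries of the series, 3 in each of 4 groups. All 12 came from mammary cells of MMTV-HER2 mice, in which the mouse mammary tumor virus promoter drives HER2 (ERBB2), so the mono-cultured controls carry the transgene too. Early lesion cells are labelled primary epithelium and primary tumor cells primary epithelial tumor cells. Each kind was grown on gelled Matrigel for 7 days, alone or with alveolar macrophages isolated from lungs of wildtype FVB mice, and the co-cultured cells were separated by flow cytometric sorting. Every well had the same serum medium with hydrocortisone, insulin and EGF, itself an ErbB receptor ligand. No label states the sort gate, the animals' ages or the number of animals behind a replicate. Early lesion and primary tumor cells belong to separate experiments with their own controls and their own count tables, so stage and experiment cannot be told apart in any difference described here.

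Alveolar macrophages are phagocytes that live in the air spaces of the lung and meet mammary tumor cells that reach the lung. Breast cancer cells can leave the mammary gland at an early stage as well as from an overt tumor, and cells that persist in the lung may stay in a growth-arrested state, for which TGF-β family signals and cell-cycle inhibitors are known. Macrophages act on epithelial cells through cytokines, interferons, growth factors and lipid exchange, so genes of these pathways, of proliferation and of metabolism were read in both stages.

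The 12 libraries held 19.7 to 43.7 M counts each, and replicates of a group correlated at 0.984 to 0.993. The epithelial markers Epcam and Krt8 stood at 692, 735 and 717 CPM (counts per 1e+06 reads after normalization) and 1285, 1103 and 1040 CPM in mono-cultured early lesion cells. Mono-cultured primary tumor cells had 715, 649.5 and 749 CPM and 1148, 1056 and 1071 CPM, so both stages held the labelled cell type. The 11 pan-macrophage markers tested, of 19 listed, summed to 11.1, 19.1 and 7.37 CPM in mono-cultured early lesion cells. With macrophages these cells had 17, 11.4 and 37.8 CPM, which overlapped. In primary tumor cells the sums were 22.3, 24.2 and 22.8 CPM alone and 29.4, 29 and 36.6 CPM with macrophages, without overlap. Chil3, an abundant product of alveolar macrophages, was at 5.08, 13.6 and 0.349 CPM in mono-cultured and 13.3, 5.43 and 28.5 CPM in co-cultured early lesion cells. In primary tumor cells it was at 0.0395, 0 and 0 CPM alone and 7.1, 5.33 and 5.85 CPM after co-culture, against 13660 CPM in the macrophages of the same co-culture. The 13 fibroblast markers tested were uneven, as described further on. In bulk samples a larger share of another cell type and more RNA per cell cannot be told apart.

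**Figure D1:**
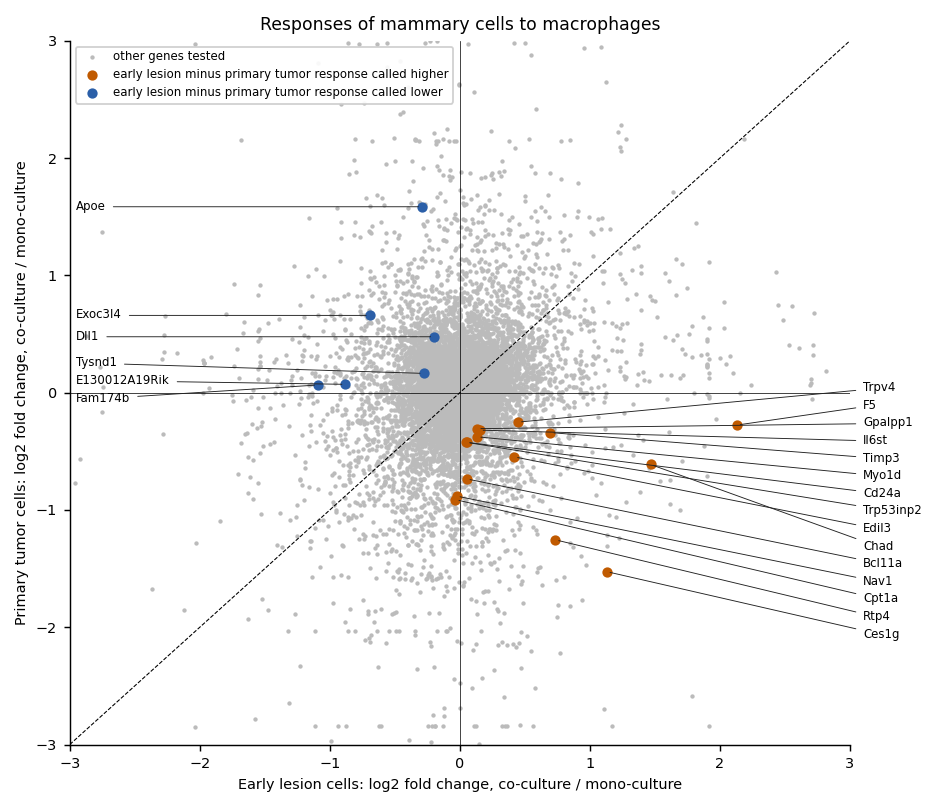
Response of each gene in early lesion cells (x axis) against primary tumor cells (y axis), both as log2 fold change of co-culture over mono-culture from 3 against 3 libraries. Grey points are genes tested within the axis limits, and orange and blue points are the 15 and 6 genes whose difference of responses was called higher or lower. All 15 orange points lie below the horizontal line at 0 and all 6 blue points above it, and the dashed line marks equal responses.

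Of 15262 genes tested, 21 differed in response between the stages (0.138%), 15 of them higher (0.0983%) and 6 lower (0.0393%) in early lesion relative to primary tumor cells. The test was edgeR's quasi-likelihood F test, two-sided, Benjamini-Hochberg adjusted across the 15262 genes with a threshold of 0.05. Every adjusted p given here is of this kind unless another tool is named. All 15 higher genes had a primary tumor response below 0 and 13 had an early lesion response above 0. All 6 lower genes had a primary tumor response above 0 and an early lesion response below 0. Genes called for a difference of 2 responses are likely to lie on opposite sides of 0, and over all genes tested 45.7% did so. Replicates of the 2 cultures did not overlap for 3204 of the 15262 genes in early lesion cells and for 3664 in primary tumor cells. Among the 21 calls this held for 16 and 17. Called genes are likely to have it, and the naming rule asks for it in 1 experiment, so it is no separate evidence for a gene. On its own the primary tumor response was called for 13 of the 21 genes, the early lesion response for 6, and both for 2, Trpv4 and Exoc3l4. Across all genes the 2 responses were only weakly alike (Pearson r 0.0972, Spearman rho 0.116 over 15262 genes, which share libraries within a stage and are not independent). Co-culture changed 67 genes in early lesion cells (0.439%, 47 higher and 20 lower) and 666 in primary tumor cells (4.36%, 285 or 1.87% higher and 381 or 2.50% lower). In both stages 18 genes changed in the same direction, which is 26.9% of the early lesion and 2.7% of the primary tumor calls. Replicates of the same number deviated together in the primary tumor experiment, and with the replicate number as a block there 143 genes were called higher (0.937%) and 106 lower (0.695%), with all 21 among them. Values given with the block are of this one unless both experiments are named. It was chosen after that deviation was seen, and whether the numbers mark shared material is not known in either experiment. Single libraries also moved the counts. Without co-cultured early lesion replicate 1 the calls were 113 higher and 70 lower, and without mono-cultured primary tumor replicate 2 they were 7 and 2. Of the 21 calls, 8 held in each of the 12 fits that left out a library (Cpt1a, E130012A19Rik, Edil3, Fam174b, Myo1d, Nav1, Trp53inp2 and Trpv4) and 13 were lost in at least 1. At an unadjusted p under 0.05 stood 2215 genes (14.5%), and no gene passed a test for a difference of at least 0.5 on the log2 scale (edgeR glmTreat, smallest adjusted p = 0.164, with 368 genes at an unadjusted p under 0.05, not run with another tool).

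**Figure D2:**
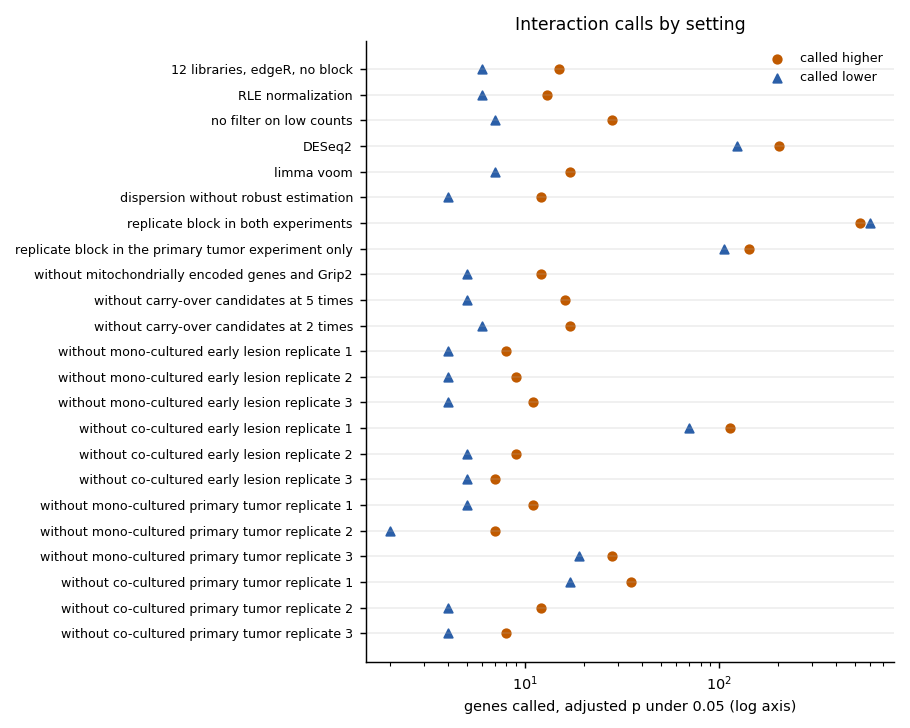
Number of genes called for a higher (orange circles) or lower (blue triangles) early lesion response relative to the primary tumor response, on a log axis, for each setting on the y axis. The counts of 15 and 6 stand in the top row, and the right-most points come from DESeq2, the replicate block and the fit without co-cultured early lesion replicate 1.

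Cpt1a had the lowest adjusted p, and fell in primary tumor cells while its early lesion libraries overlapped. Cpt1a encodes the carnitine palmitoyltransferase of the outer mitochondrial membrane, the rate-limiting step of long-chain fatty acid entry into mitochondria (chr19:3322334-3385733, plus strand, mm10). It stood at 146, 137 and 134 CPM in mono-cultured early lesion cells. With macrophages it stood at 132, 140.0 and 135 CPM. In primary tumor cells it went from 122, 122 and 110.0 CPM to 67.7, 61.5 and 58.8 CPM, with every co-cultured library below every mono-cultured one. The responses were -0.03 ± 0.06 (SE) in early lesion and -0.91 ± 0.06 in primary tumor cells, and their difference was 0.88 ± 0.09 (edgeR adjusted p = 0.00485).

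Nav1, a neuron navigator protein that binds microtubules, had the same pattern (chr1:135434580-135607295, minus strand). Its levels were 136, 136 and 132 CPM without and 129, 137 and 131 CPM with macrophages in early lesion cells. They were 87, 79.1 and 78.8 CPM without and 51.2, 42.5 and 38.9 CPM with them in primary tumor cells. The difference of responses was 0.86 ± 0.12 (edgeR adjusted p = 0.0138), beside a primary tumor response of -0.88 ± 0.08. Exons of Nav1 overlap those of other annotated genes, and no source used here says whether the counting used strand. Its counts may hold reads of a neighbour. The zinc finger transcription factor gene Bcl11a (chr11:24078056-24174123, plus strand) went from 24, 26 and 25.8 CPM to 15.8, 15 and 14.7 CPM in primary tumor cells. Early lesion cells had 27.4, 31.9 and 31.2 CPM alone and 28.1, 33.4 and 32.5 CPM with macrophages. The difference was 0.79 ± 0.12 (edgeR adjusted p = 0.0217). Its exons overlap an antisense gene, and it kept its call in 5 of the 12 fits that left out a library.

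Trp53inp2, which takes part in autophagosome formation (chr2:155381059-155389850, plus strand), was higher in mono-cultured primary tumor cells than in any other group. There it stood at 171, 166 and 162 CPM, and co-culture brought it to 118, 125 and 129 CPM. Early lesion cells had 122, 123 and 124 CPM without and 127, 129 and 127 CPM with macrophages, so the co-cultured tumor cells came close to them. The difference of responses was 0.47 ± 0.06 (edgeR adjusted p = 0.0127). Cd24a, an epithelial surface glycoprotein gene (chr10:43578284-43584265, plus strand), likewise went from 836, 859 and 795 CPM to 635, 623 and 599 CPM in primary tumor cells. Its early lesion libraries overlapped, at 492, 535 and 493 CPM and 506, 545 and 522 CPM. The difference was 0.47 ± 0.07 (edgeR adjusted p = 0.0301), called in 4 of the 12 fits that left out a library. For the unconventional myosin gene Myo1d (chr11:80482126-80780025, minus strand) the replicates did not overlap in either stage. It went from 113, 108 and 106 CPM to 117, 124 and 119 CPM in early lesion cells, a change that did not pass alone (edgeR adjusted p = 0.227). It fell from 117, 111 and 114 CPM to 87.3, 86.5 and 90.2 CPM in primary tumor cells (difference 0.51 ± 0.06, edgeR adjusted p = 0.00747).

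**Figure D3:**
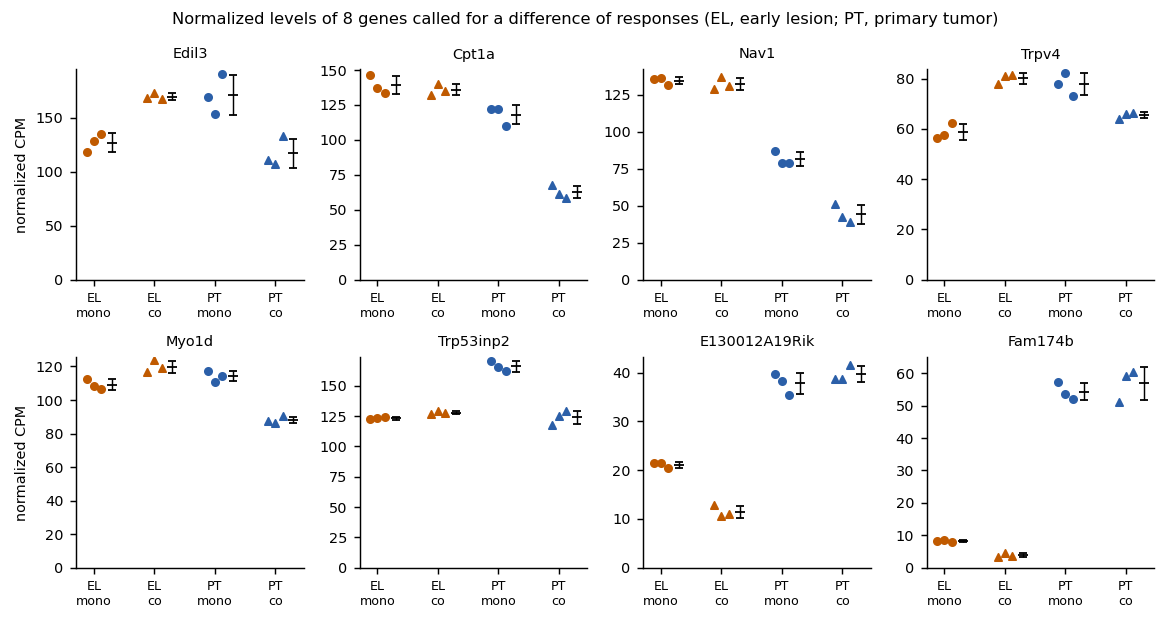
Normalized CPM (y axes, from 0) of 8 genes in each of the 3 libraries of 4 groups, early lesion (EL, orange) and primary tumor (PT, blue) cells in mono-culture (circles) and co-culture (triangles), with the mean and SD as black bars. Cpt1a and Nav1 fall in primary tumor cells with overlapping early lesion libraries, Edil3 and Trpv4 have responses of opposite sign, and Fam174b and E130012A19Rik fall in early lesion cells.

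A second set of genes rose in early lesion cells. F5, the gene of coagulation factor V (chr1:164151838-164220277, plus strand), went from 8.7, 6.86 and 7.51 CPM to 38.5, 32.1 and 30.1 CPM there, with no overlap of replicates. In primary tumor cells it was barely detected, at 0.633, 0.773 and 0.401 CPM alone and 0.456, 0.686 and 0.371 CPM with macrophages. Its exons overlap an antisense gene. The responses were 2.13 ± 0.16 and -0.28 ± 0.31, and the difference was 2.41 ± 0.35 (edgeR adjusted p = 0.0198), which was lost with limma voom (adjusted p = 0.145) and without 3 primary tumor libraries in turn. Chad, a cartilage matrix protein gene that lies within the gene body of Acsf2 (chr11:94565047-94569127, plus strand), went from 3.46, 4.09 and 3.81 CPM to 12.6, 8.97 and 9.88 CPM in early lesion cells, without overlap. Primary tumor libraries overlapped, at 4.15, 3.66 and 4.45 CPM and 1.75, 2.27 and 4.04 CPM. The difference was 2.08 ± 0.35 (edgeR adjusted p = 0.0491). It kept its call in 3 of the 12 fits that left out a library, and lost it with RLE normalization, without robust dispersion and without mitochondrially encoded genes and Grip2. Timp3, an inhibitor of matrix metalloproteases whose exons overlap Syn3 on the other strand (chr10:86300372-86349506, plus strand), rose from 91.6, 76.8 and 67.9 CPM to 134, 125 and 125 CPM in early lesion cells. Primary tumor cells went from 146, 186 and 169 CPM to 127, 144 and 125 CPM, a change that did not pass alone (edgeR adjusted p = 0.0979). The difference was 1.04 ± 0.15 (edgeR adjusted p = 0.0272), called in 7 of the 12 fits that left out a library.

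Several genes had responses of opposite sign with no overlap of replicates in either stage. Edil3, a secreted matrix glycoprotein that binds integrins (chr13:88821472-89323223, plus strand), started at 118, 128 and 135 CPM in early lesion cells and reached 169, 173 and 167 CPM with macrophages. In primary tumor cells it started at 169, 154 and 190.5 CPM and ended at 111, 107 and 133 CPM, so the stage with the higher level was not the same with and without macrophages. The early lesion response did not pass alone (edgeR adjusted p = 0.0832). The difference of responses was 0.96 ± 0.13 (edgeR adjusted p = 0.0132). Trpv4, a calcium-permeable channel opened by stretch, heat and lipid products (chr5:114622152-114658421, minus strand), was 1 of the 2 genes called in both stages in opposite directions. It went from 56.3, 57.6 and 62.5 CPM to 77.8, 81.3 and 81.5 CPM in early lesion cells (0.45 ± 0.06, edgeR adjusted p = 0.00367). Primary tumor cells went from 78, 82.4 and 73.3 CPM to 64, 66.1 and 66.2 CPM (-0.25 ± 0.06, edgeR adjusted p = 0.0284), and the difference was 0.70 ± 0.08 (edgeR adjusted p = 0.00695).

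Il6st, the shared gp130 receptor chain of the interleukin 6 family (chr13:112464070-112510086, plus strand), had smaller values of the same kind. Its levels were 172, 158 and 163 CPM and 189, 178 and 180.5 CPM in early lesion cells. Primary tumor cells had 139.5, 135 and 130.2 CPM and 115, 109 and 101 CPM, and the groups overlapped in neither stage. The difference was 0.47 ± 0.08 (edgeR adjusted p = 0.0491). Gpalpp1 (chr14:76086236-76110760, minus strand) differed by 0.44 ± 0.07 (edgeR adjusted p = 0.0483). Its early lesion means were 51.3 and 56.3 CPM and its primary tumor means 64.2 and 51.9 CPM without and with macrophages. Ces1g, one of a cluster of similar carboxylesterase genes between which reads may be split (chr8:93302369-93337308, minus strand), had the numerically largest called difference, 2.65 ± 0.39 (edgeR adjusted p = 0.0198), but at low levels. It was at 0.767, 0.889 and 1.16 CPM against 1.97, 2.05 and 2.14 CPM in early lesion and 1.11, 1.71 and 1.52 CPM against 0.418, 0.633 and 0.464 CPM in primary tumor cells. Of the 12 fits that left out a library, Il6st and Gpalpp1 each kept their call in 3 and Ces1g in 6.

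Among the 6 genes called lower, Fam174b and E130012A19Rik fell in early lesion cells, without overlap, and their primary tumor libraries overlapped. Fam174b (chr7:73740302-73776919, plus strand), whose exons overlap an antisense gene, went from 8.15, 8.62 and 7.83 CPM to 3.36, 4.47 and 3.73 CPM in early lesion cells. Its primary tumor levels were much higher, at 57.2, 53.7 and 52 CPM and 51, 59.1 and 60.5 CPM. The difference was -1.16 ± 0.14 (edgeR adjusted p = 0.00747). E130012A19Rik, which has no entry in the annotation used for positions, went from 21.5, 21.4 and 20.4 CPM to 12.8, 10.5 and 11 CPM in early lesion cells. Primary tumor cells held 39.7, 38.2 and 35.4 CPM and 38.7, 38.7 and 41.6 CPM, and the difference was -0.95 ± 0.11 (edgeR adjusted p = 0.00695). Exoc3l4, which shares exon sequence with an antisense gene (chr12:111417017-111431678, plus strand), was the other gene called in opposite directions. It fell from 8.7, 7.3 and 7.33 CPM to 4.59, 4.74 and 5.13 CPM in early lesion cells. It rose from 6.49, 7.04 and 7.77 CPM to 9.76, 11 and 12.9 CPM in primary tumor cells (-1.35 ± 0.19, edgeR adjusted p = 0.0155), and lost its call without mono-cultured primary tumor replicate 2.

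Dll1, a Notch ligand gene (chr17:15367354-15376872, minus strand), was higher in primary tumor cells, and the stages lay further apart in co-culture. Its levels were 61.6, 62.5 and 56.9 CPM and 50.1, 54.3 and 53.5 CPM in early lesion cells without and with macrophages. Values in primary tumor cells were 156, 153 and 183 CPM and 223, 212 and 250 CPM. The difference was -0.67 ± 0.11 (edgeR adjusted p = 0.0483), and exons of Dll1 overlap an antisense gene. The call held in 3 of the 12 fits that left out a library, and was lost without robust dispersion. Tysnd1, a protease that processes peroxisomal enzymes (chr10:61695514-61702773, plus strand), differed by -0.44 ± 0.07 (edgeR adjusted p = 0.0483), but kept its call in 1 of the 12 fits that left out a library. It fell from 28.6, 28.2 and 28.6 CPM to 24.7, 22.9 and 22.8 CPM in early lesion cells and had 40.2, 37.2 and 39.2 CPM against 43.8, 43.3 and 43.6 CPM in primary tumor cells. Ifrd2, the gene that the naming rule adds in this direction (chr9:107587642-107593385, plus strand), did not pass (-0.52 ± 0.09, edgeR adjusted p = 0.0596), and did with the replicate block (edgeR adjusted p = 0.0144).

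Apoe, the lipid carrier apolipoprotein E that macrophages make in quantity (chr7:19696109-19699188, minus strand), had the largest negative difference among the calls. Early lesion cells held 9.23, 9.59 and 9.4 CPM in mono-culture and 6.31, 7.05 and 10 CPM in co-culture, which overlapped. Primary tumor cells held 29.5, 25.8 and 32 CPM and 81.3, 73.7 and 107 CPM, without overlap, and the difference of responses was -1.88 ± 0.24 (edgeR adjusted p = 0.0146). It was the 1 call among 1892 tested genes marked as carry-over candidates, which means at least 5 times as much in the macrophages of the same co-culture as in the mammary cells in 1 of the experiments. Levels were compared for this after leaving out mitochondrially encoded genes and Grip2, and Apoe reached that ratio in the early lesion experiment, where the macrophages held 460.1 CPM, 57.2 times the co-cultured early lesion cells. In the primary tumor experiment the macrophages held 87.1 CPM, 1.11 times the co-cultured primary tumor cells. The co-cultured macrophage libraries of that experiment had 74.9 to 78.6% mitochondrially encoded counts, against 2.91 to 3.08% in the early lesion experiment, and the part of this in their Apoe level was not tested. The call was lost without co-cultured early lesion replicate 2 and without mono-cultured primary tumor replicate 2.

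Interferon-stimulated genes are induced through the transcription factor complex ISGF3, which binds a promoter element named the interferon-stimulated response element (ISRE). Their median response was near 0 in early lesion cells and below 0 in primary tumor cells. Of 24 members tested, 18 had a difference of responses above 0, against 50.7% of all genes tested. Their median was 0.42, against 0.0049 over all genes. The early lesion response had a median of 0.05, with 17 of 24 above 0 (50.2% of all genes) and 0 called. The primary tumor response had a median of -0.43, with 4 of 24 above 0 (50.9% of all genes) and 2 called lower (2.50%). The summed level of the 24 genes was 304, 297 and 277 CPM in mono-cultured and 325, 303 and 288 CPM in co-cultured early lesion cells. The primary tumor libraries had 269, 263 and 331 CPM and 248, 237 and 202 CPM, so that every co-cultured library lay below every mono-cultured one there, with mono-cultured replicate 3 the highest. Without that library the median difference was 0.26, and over all 12 fits that left out a library it lay between 0.26 and 0.59.

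Rtp4, a chaperone of membrane receptors that interferon induces (chr16:23520291-23614222, plus strand), was the 1 member called for the difference. It went from 7.22, 6.86 and 6.93 CPM to 12.4, 11 and 11.6 CPM in early lesion cells, without overlap, which did not pass alone (edgeR adjusted p = 0.174). It fell from 15, 15.7 and 24.2 CPM to 8.09, 9.71 and 5.29 CPM in primary tumor cells (edgeR adjusted p = 0.0107), and the difference was 1.99 ± 0.30 (edgeR adjusted p = 0.0269). Its call held in 6 of the 12 fits that left out a library, and an overlapping gene on the same strand may share its reads. Irf9, the DNA-binding subunit of ISGF3, whose exons overlap Rnf31 on the same strand, was the other member called lower in primary tumor cells, at 36.9, 36.7 and 42.8 CPM against 33.1, 29.1 and 26 CPM, and had a difference of 0.45 ± 0.14 (edgeR adjusted p = 0.195). Ifi44 was at 4.37, 6 and 4.92 CPM against 7.11, 7.95 and 6.85 CPM in early lesion cells. Levels in primary tumor cells were 7.67, 6.51 and 11.6 CPM against 6.34, 4.96 and 4.88 CPM, also without overlap (1.19 ± 0.29, edgeR adjusted p = 0.139). Isg15, a ubiquitin-like modifier, had 2.81, 3.21 and 6.69 CPM and 2.2, 1.85 and 2.09 CPM in primary tumor cells without and with macrophages, without overlap. Its early lesion libraries overlapped, at 2.27, 1.82 and 2.24 CPM and 2.74, 1.95 and 1.63 CPM (1.06 ± 0.45, edgeR adjusted p = 0.31).

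Members of the interferon list with a match to the ISRE letters were ranked by p for the difference, the quantity under study. Genes whose bases after the start were found in no GENCODE transcript were skipped. The promoters of the first 2 left, Isg15 and Oas1a, a double-stranded RNA sensor gene, are printed, and each carries more than 1 match. Both genes were lower in every co-cultured primary tumor library than in any mono-cultured one. Oas1a went from 4.75, 5.82 and 10.1 CPM to 3.46, 4.01 and 2.79 CPM there and is also a carry-over candidate (1.37 ± 0.69, edgeR adjusted p = 0.383). The sequences are the 250 bases before the transcription start in RefSeq's GRCm38.p6 (mm10), minus strand of chr4:156200819-156201068 and of chr5:120907526-120907775, written 5′ to 3′, and capitals mark the ISRE matches (GAAA, any 2 bases, then GAAA, on either strand, with overlapping matches run together).
Isg15: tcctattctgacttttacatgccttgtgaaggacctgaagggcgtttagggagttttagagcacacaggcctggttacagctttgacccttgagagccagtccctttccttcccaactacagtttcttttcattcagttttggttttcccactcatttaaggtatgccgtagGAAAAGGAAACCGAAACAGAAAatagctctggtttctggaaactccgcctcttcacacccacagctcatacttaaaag
Oas1a: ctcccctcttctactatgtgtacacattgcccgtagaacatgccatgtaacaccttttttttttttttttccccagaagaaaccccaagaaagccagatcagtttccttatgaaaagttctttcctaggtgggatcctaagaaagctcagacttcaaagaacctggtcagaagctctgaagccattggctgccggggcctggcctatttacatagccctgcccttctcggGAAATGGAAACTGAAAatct
Of the 24 members tested, 18 had a promoter in this table and 7 of those held a match (38.9%), against 344 of 10841 promoters of all genes tested (3.17%). This is a description of the sequence and not of binding. Rtp4 was not in the table.

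**Figure D4:**
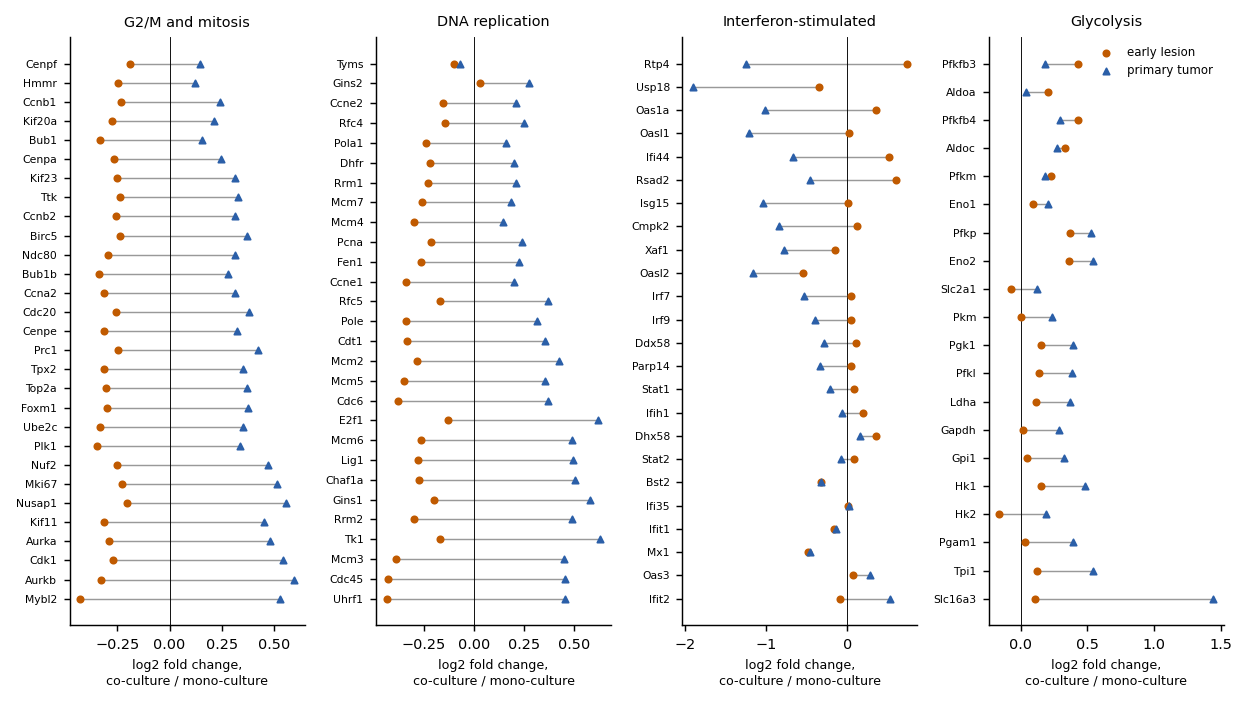
Log2 fold change of co-culture over mono-culture (x axes) for each tested member of 4 gene lists, in early lesion cells (orange circles) and primary tumor cells (blue triangles), ordered by their difference. Every G2/M and mitosis gene lies below 0 in early lesion cells and above 0 in primary tumor cells, while most interferon-stimulated genes have the primary tumor point to the left.

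Cell-cycle genes had differences in the other direction, with no member called for them in the edgeR fit of all 12 libraries without a block. All 29 G2/M and mitosis genes, which build the spindle and drive division, had an early lesion response below 0 and a primary tumor response above 0, an arrangement that 23.2% of all genes tested had. The medians were -0.28 and 0.35, and that of the difference -0.64. By edgeR 0 of 29 were called for the difference, with 10 at an unadjusted p under 0.05 (14.5% of all genes) and 0 called with the replicate block in the primary tumor experiment. Genes of this kind are known to rise and fall together with the share of dividing cells, so that 29 members do not amount to 29 measurements. The summed level of the list was 1857, 1445 and 1654 CPM in mono-cultured and 1750, 1119 and 1216 CPM in co-cultured early lesion cells, with co-cultured replicate 1 among the mono-cultured libraries. Primary tumor cells had 936, 1244 and 1494 CPM alone and 1284, 1638 and 1815 CPM with macrophages. The groups overlapped, but each co-cultured library lay above the mono-cultured one of its number. In early lesion cells each co-cultured library lay below the mono-cultured one of its number. With the number as a block in both experiments 23 of 29 were called lower (79.3%, where 3.93% of all genes were). Whether the numbers mark shared material is not known in either experiment. The median difference was -0.87 without co-cultured early lesion replicate 1, -0.49 without mono-cultured primary tumor replicate 1, and between these values without any other library.

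Cdk1, the kinase that drives entry into mitosis, may stand for the list. It was at 62.7, 51.1 and 52 CPM in mono-cultured and 60, 37.2 and 40 CPM in co-cultured early lesion cells. Values in primary tumor cells were 40.8, 54 and 58.3 CPM and 56.3, 78.7 and 88.1 CPM, and groups overlapped in both stages (-0.81 ± 0.31, edgeR adjusted p = 0.279). The chromosomal passenger kinase gene Aurkb (-0.92 ± 0.33, 0.245), the kinetochore gene Nuf2 (-0.73 ± 0.25, 0.23) and the proliferation marker Mki67 (-0.74 ± 0.36, 0.371) had similar differences that did not pass edgeR's test either (adjusted p in parentheses). Among 28 genes of DNA replication and the G1/S transition, 28 had a difference below 0 (median -0.67, early lesion -0.26, primary tumor 0.36). Of these 18 had an unadjusted p under 0.05 and 0 were called, against 2 called lower with the replicate block (7.14%, where 0.695% of all genes were). One was E2f1, a transcription factor of S phase genes, at 13.6, 15.5 and 16.7 CPM against 18.8, 25.7 and 26.1 CPM in primary tumor cells. Its difference was -0.75 ± 0.19 (edgeR adjusted p = 0.139, and 0.0271 with the block). The other was the thymidine kinase gene Tk1 (-0.80 ± 0.24, edgeR adjusted p = 0.194, and 0.0156 with the block). With a block in both experiments 24 of 28 replication genes were called lower (85.7%, where 3.93% of all genes were). Without a block, 1 was called lower in the fit without co-cultured early lesion replicate 1. Likewise 1 was called lower without co-cultured primary tumor replicate 1.

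Mitotic genes are known to share a promoter element, the cell cycle genes homology region (CHR, TTTGAA), through which the DREAM complex and MuvB proteins act. Members with a CHR match were ranked by p for the difference, as in the interferon list. Genes whose start matched no GENCODE transcript were again skipped. The promoters of Cdk1 and of Ube2c, a ubiquitin-conjugating enzyme of the anaphase-promoting complex, are printed by that rule. They cover the 250 bases before the start, chr10:69352913-69353162 on the minus strand and chr2:164769679-164769928 on the plus strand (RefSeq, GRCm38.p6), and capitals mark TTTGAA or its reverse complement TTCAAA.
Cdk1: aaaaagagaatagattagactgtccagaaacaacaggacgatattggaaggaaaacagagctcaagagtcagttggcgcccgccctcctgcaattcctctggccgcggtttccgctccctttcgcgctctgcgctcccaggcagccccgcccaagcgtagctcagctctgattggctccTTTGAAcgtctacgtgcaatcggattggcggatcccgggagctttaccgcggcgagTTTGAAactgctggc
Ube2c: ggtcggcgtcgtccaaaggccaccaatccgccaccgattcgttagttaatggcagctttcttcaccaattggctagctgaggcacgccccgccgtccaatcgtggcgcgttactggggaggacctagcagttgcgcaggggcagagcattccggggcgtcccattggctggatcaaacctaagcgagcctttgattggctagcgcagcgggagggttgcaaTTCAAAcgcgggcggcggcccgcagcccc
A match was present in 8 of the 24 mitosis genes with a promoter in the table (33.3%) and in 1402 of 10841 genes tested (12.9%). For the replication list the E2F letters TTTNNCGC, on either strand, were present in 6 of 22 (27.3%), against 846 of 10841 (7.8%).

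Glycolysis genes had responses above 0 in both stages, with the higher median in primary tumor cells. All 20 glycolysis genes had a primary tumor response above 0 (median 0.31, 6 called higher, where 1.87% of all genes were), and 18 of 20 an early lesion response above 0 (median 0.13, 0 called). The difference had a median of -0.24 with 15 of 20 below 0, and 0 were called by edgeR, with 7 at an unadjusted p under 0.05. That median was -0.13 without co-cultured primary tumor replicate 3 and -0.15 without mono-cultured replicate 1. Their summed level was 8724, 8176 and 8274 CPM and 9553, 8403 and 8767 CPM in early lesion cells without and with macrophages. The primary tumor libraries had 12720, 13790 and 13420 CPM and 14490, 16100 and 17940 CPM, without overlap. Hk1, which phosphorylates glucose, went from 168, 176 and 205 CPM to 236, 242 and 289 CPM in primary tumor and from 125, 122 and 121 CPM to 132, 138 and 140.4 CPM in early lesion cells, apart in both. Its difference was -0.33 ± 0.12 (edgeR adjusted p = 0.236, and 0.0216 with the replicate block). The lactate exporter gene Slc16a3, a carry-over candidate, had the lowest difference of the list, at 10.1, 23.3 and 25.2 CPM against 31, 49.4 and 79.1 CPM in primary tumor cells (-1.34 ± 0.57, edgeR adjusted p = 0.327).

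Targets of the hypoxia-inducible factors outside glycolysis had 15 of 18 differences below 0 (median -0.25, early lesion 0.16, primary tumor 0.41) and 0 called. The median difference was -0.09 without co-cultured primary tumor replicate 3, -0.15 without mono-cultured replicate 1 and -0.16 without co-cultured early lesion replicate 2. Egln3, an oxygen-sensing prolyl hydroxylase gene and carry-over candidate, went from 27.7, 39.5 and 62.6 CPM to 67.3, 93 and 223 CPM in primary tumor cells. Its difference was -1.30 ± 0.65 (edgeR adjusted p = 0.387, and 0.0132 with the replicate block). MHC class I presentation genes, which load peptides for display to T cells, had 14 of 16 differences below 0 (median -0.21) and 2 of 16 called higher in primary tumor cells (1.87% of all genes). Without co-cultured primary tumor replicate 2 the median difference was -0.10, and without mono-cultured early lesion replicate 3 it was -0.14. The class I heavy chain gene H2-K1, 1 of these 2, was at 234, 233 and 230.2 CPM against 271, 318 and 309 CPM there. Early lesion cells had 165, 166 and 168 CPM against 178, 159 and 172 CPM, which overlapped (-0.34 ± 0.09, edgeR adjusted p = 0.139). Its reads may be shared with other class I genes of near-identical sequence. MHC class II presentation genes had 3 of 5 differences above 0 (median 0.13) and 0 called. Their median was -0.14 without mono-cultured primary tumor replicate 2. The highest difference among them was that of H2-Ab1, which went from 6.88, 8.97 and 9.93 CPM to 17.1, 11.6 and 14.4 CPM in early lesion cells. Levels in primary tumor cells were 3.36, 8.38 and 8.17 CPM and 1.18, 3.69 and 1.86 CPM, which overlapped (2.34 ± 0.57, edgeR adjusted p = 0.139, and 0.00649 with the block).

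The TGF-β family acts through type I and type II receptors on SMAD proteins, which induce their own inhibitors, and TGF-β signaling and dormancy belong to the question of the study. Of 26 ligands, receptors and latent binding proteins 0 were called for the difference, with a median of 0.06 that was -0.07 without co-cultured early lesion replicate 1 and 0.21 without mono-cultured primary tumor replicate 3. In primary tumor cells 4 were called lower and 1 higher, where 2.50% and 1.87% of all genes were. Tgfbr1, the type I receptor gene, was at 71.1, 65 and 71.1 CPM against 77.5, 64 and 68.5 CPM in early lesion cells, which overlapped. It fell from 64.7, 62.1 and 56.3 CPM to 47.3, 46.5 and 46.6 CPM in primary tumor cells (edgeR adjusted p = 0.0168). Its difference, 0.40 ± 0.10, did not pass (edgeR adjusted p = 0.141). The type II BMP receptor gene Bmpr2 went the same way, from 240.0, 249.5 and 233 CPM to 189.5, 194 and 192 CPM in primary tumor cells (0.45 ± 0.09, edgeR adjusted p = 0.0944, and 0.0393 with the block). Inhbb, the activin βB subunit gene and the 1 member called higher there, went from 947, 844 and 886 CPM to 1114, 1071 and 1115 CPM (-0.36 ± 0.08, edgeR adjusted p = 0.109, and 0.0308 with the block). The ligand genes Tgfb1 (-0.04 ± 0.14), Tgfb2 (-0.38 ± 0.19) and Tgfb3 (-0.32 ± 0.29), the type II receptor gene Tgfbr2 (-0.02 ± 0.12) and the co-receptor gene Tgfbr3 (-0.49 ± 0.22) did not pass, with edgeR adjusted p of 0.934, 0.38, 0.648, 0.961 and 0.33.

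SMAD target and feedback genes had 15 of 21 differences above 0 (median 0.17, 50.7% above 0 over all genes) and 0 called for the difference. Of the 21, 5 were called lower in primary tumor cells (2.50% of all genes). With the replicate block 3 were called higher (14.3%, where 0.937% of all genes were). Skil, the SnoN repressor of SMADs, was at 314, 324 and 327 CPM against 319, 401 and 370.1 CPM in early lesion cells. It fell from 304, 304 and 282 CPM to 232, 223 and 206 CPM in primary tumor cells (0.60 ± 0.11, edgeR adjusted p = 0.0596, and 0.0155 with the block). The BMP target Id1, an inhibitor of differentiation factors, fell from 35.2, 32.8 and 28.4 CPM to 23.5, 20.1 and 15.5 CPM in primary tumor cells. Early lesion cells had 43.1, 45.8 and 43 CPM against 40.3, 42.7 and 40 CPM, also without overlap (0.60 ± 0.17, edgeR adjusted p = 0.175, and 0.00883 with the block). The inhibitory SMAD gene Smad6 (0.38 ± 0.09, edgeR adjusted p = 0.128) also fell in primary tumor cells, from 17.4, 17.4 and 17.9 CPM to 12.9, 12.7 and 12.9 CPM. Among cell-cycle inhibitors and dormancy genes 8 of 20 differences lay above 0 and 0 were called. Cdkn1b, the p27 inhibitor gene, had responses of 0.14 ± 0.06 and 0.15 ± 0.06, with a difference of -0.01 ± 0.09. The dormancy-linked nuclear receptor gene Nr2f1 was low throughout, at 1.12 and 1.34 CPM in early lesion and 2.67 and 0.983 CPM in primary tumor cells (1.70 ± 0.57, edgeR adjusted p = 0.222). The adhesion gene Cdh1 (0.14 ± 0.08) and Erbb2, the mouse gene of the receptor that the transgene encodes (-0.09 ± 0.39), did not pass (edgeR adjusted p = 0.464 and 0.95). Whether the counts of Erbb2 hold reads of the transgene is not known.

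Fatty acid oxidation and PPAR target genes, the list that holds Cpt1a, had 15 of 21 differences above 0 (median 0.14), with Cpt1a the 1 called. The lipid chaperone gene Fabp5, a carry-over candidate, ran against the list, from 40.5, 40 and 49.6 CPM to 30.5, 24.9 and 28 CPM in early lesion cells. Values in primary tumor cells were 43.9, 43.4 and 52.9 CPM and 51.8, 66.4 and 81.2 CPM (-1.15 ± 0.22, edgeR adjusted p = 0.0944, and 0.00843 with the block). The trifunctional protein gene Hadha, which completes mitochondrial β-oxidation, had 0.18 ± 0.07 (edgeR adjusted p = 0.289).

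Of the 30 lists of pathways and cell states, Cpt1a, Rtp4 and Dll1 were the only members called for the difference without the block. Of 18 p53 target genes 5 fell in primary tumor cells (median -0.26, 2.50% of all genes called lower) and 0 were called in early lesion cells (median -0.20). Their median difference was 0.12, with 0 called, -0.02 without mono-cultured primary tumor replicate 3, and 0.04 without co-cultured replicate 2. Trp53inp1, a p53-induced stress gene, was at 155, 149.6 and 138 CPM against 99.2, 90.6 and 88.7 CPM in primary tumor cells and overlapped in early lesion cells (0.53 ± 0.15, edgeR adjusted p = 0.178). In the Wnt list 13 of 19 differences were above 0 (median 0.29) and 0 were called. The median was 0.08 without co-cultured early lesion replicate 1 and 0.18 without replicate 2. Sfrp1, a secreted Wnt antagonist gene, ran the other way, with 77.6, 69.5 and 101 CPM to 108, 116 and 160.3 CPM in primary tumor cells (-0.71 ± 0.23, edgeR adjusted p = 0.218, and 0.00724 with the block). Among 14 Notch pathway genes Dll1 was the 1 called, and the receptor gene Notch2 was at 0.38 ± 0.12 (edgeR adjusted p = 0.195).

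Mesenchymal transition and invasion genes had a median difference of 0.26, with 16 of 25 above 0 and 0 called, and the median turned to -0.05 without co-cultured early lesion replicate 1. Itgav, the αV integrin gene, fell from 405, 371 and 319 CPM to 306, 273 and 253 CPM in primary tumor cells (0.45 ± 0.12, edgeR adjusted p = 0.144, and 0.00658 with the block), and the metalloprotease gene Adam12 from 137, 202 and 218 CPM to 71, 80.3 and 76.8 CPM (0.95 ± 0.31, edgeR adjusted p = 0.223). Basal and myoepithelial genes had a lower early lesion median (-0.45, against -0.02 in primary tumor cells) with 0 of 18 called for the difference. The basal keratin gene Krt5 went from 490.5, 587 and 669 CPM to 295, 181 and 302 CPM in early lesion cells without overlap. The primary tumor libraries had 56.5, 99 and 183 CPM and 89.9, 135 and 245 CPM, which overlapped (-1.64 ± 0.65, edgeR adjusted p = 0.299, and 0.0397 with the block). Luminal, junction, ErbB, matrix, cholesterol and fatty acid synthesis lists had medians of the difference between -0.13 and 0.05, with 0 called in each. Without single libraries these medians lay between -0.24 and 0.19, and those of the ErbB, matrix, cholesterol and fatty acid lists changed sign. The neutrophil chemokine gene Cxcl1 was without overlap in both stages, from 56.8, 74.6 and 87 CPM to 109, 108 and 117 CPM in early lesion cells, where it did not pass alone. It rose from 7.99, 8.87 and 9.82 CPM to 26.1, 21.8 and 17.3 CPM in primary tumor cells, and its difference of -0.68 ± 0.24 did not pass (edgeR adjusted p = 0.244).

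The remaining lists had 0 members called for the difference in the edgeR fit of all 12 libraries without the block. ERK feedback genes, which dampen growth factor signals, had 13 of 15 differences below 0 (median -0.20). Dusp5, a nuclear ERK phosphatase gene, fell in early lesion cells from 31.2, 35.6 and 35 CPM to 25.3, 22.2 and 22.4 CPM (edgeR adjusted p = 0.036). Its primary tumor libraries overlapped, and its difference was -0.35 ± 0.14 (edgeR adjusted p = 0.279). AP-1 and immediate early genes had 12 of 17 below 0 (median -0.15, and -0.04 without co-cultured early lesion replicate 1), and Jun, an AP-1 subunit gene, stood at -0.46 ± 0.13 (edgeR adjusted p = 0.176). Among YAP and TEAD targets 8 of 15 lay above 0, and 2 genes of the upstream Hippo pathway moved in opposite directions in primary tumor cells. The scaffold gene Wwc1 rose from 147, 137 and 135 CPM to 195, 168 and 176 CPM there (difference -0.33 ± 0.08, edgeR adjusted p = 0.139). The kinase gene Lats2 fell from 38.2, 33.8 and 34.9 CPM to 30.5, 28.3 and 28.8 CPM (0.38 ± 0.10, edgeR adjusted p = 0.139). NRF2 antioxidant genes had 12 of 18 differences above 0 (median 0.09), and unfolded protein and stress response genes 18 of 24 below 0 (median -0.13). Slc7a11, the cystine importer gene that both of these lists hold, fell in primary tumor cells from 8.62, 9.64 and 10.7 CPM to 5.01, 6.91 and 6.41 CPM and is a carry-over candidate (0.65 ± 0.19, edgeR adjusted p = 0.18). In the matrix list the fibrillar collagen gene Col11a1 rose in early lesion cells from 31.4, 31 and 30.4 CPM to 62.5, 77 and 60.4 CPM (edgeR adjusted p = 0.0283), and its difference did not pass (0.50 ± 0.24, edgeR adjusted p = 0.362). In the luminal list Aldh1a3, a retinaldehyde dehydrogenase gene of luminal progenitors, rose in primary tumor cells from 10.8, 10.4 and 8.61 CPM to 20.3, 18.8 and 17.8 CPM (-0.64 ± 0.21, edgeR adjusted p = 0.21). The contractile kinase gene Mylk of the basal list had the smallest p of its list, at 14.1, 12.7 and 15.1 CPM against 19.1, 21.3 and 18.2 CPM in early lesion cells. Levels in primary tumor cells were 15.5, 12.9 and 14.7 CPM against 12.8, 9.97 and 12.1 CPM (0.79 ± 0.16, edgeR adjusted p = 0.0944, and 0.0155 with the block).

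**Figure D5:**
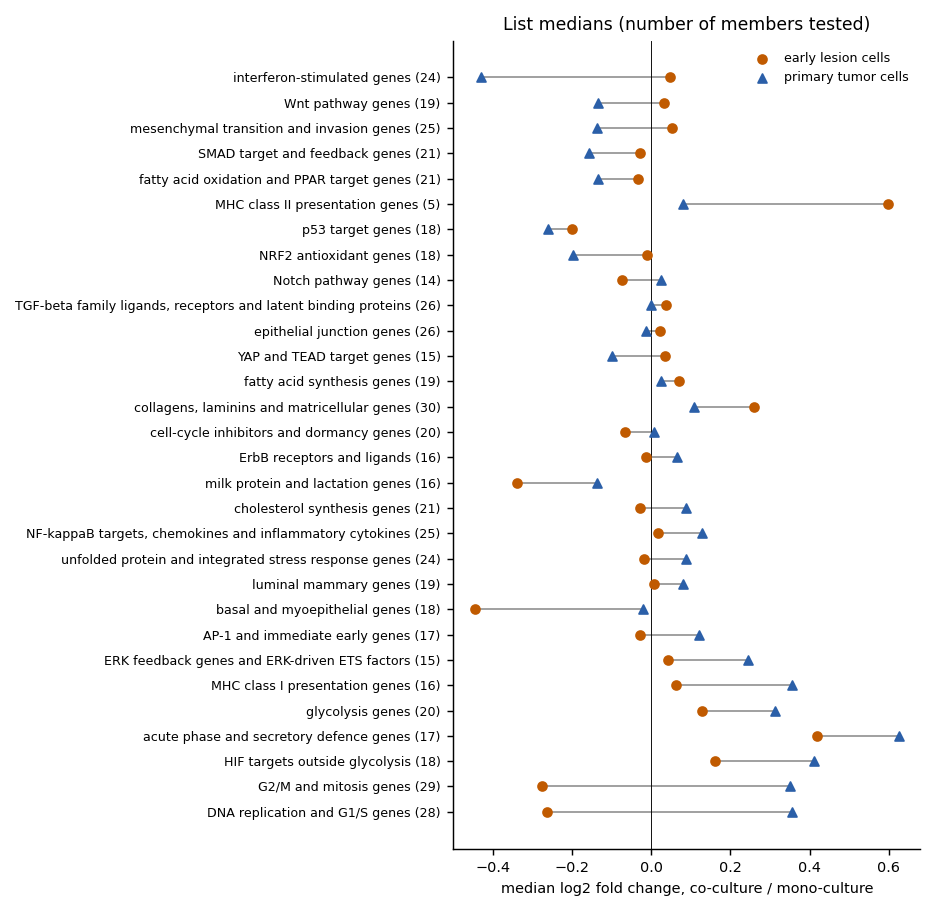
Median log2 fold change of co-culture over mono-culture (x axis) in early lesion cells (orange circles) and primary tumor cells (blue triangles) for 30 gene lists, with the number of members tested in parentheses, ordered by the median difference of responses. The G2/M and DNA replication lists at the bottom have their medians on opposite sides of 0, and the interferon list at the top has a primary tumor median well below its early lesion median.

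Markers of other cells moved with some of these values. The 13 fibroblast markers summed to 2212, 1141 and 1853 CPM in mono-cultured and 3666, 1218 and 1696 CPM in co-cultured early lesion cells. Primary tumor cells had 383, 588 and 374 CPM and 498, 484 and 488 CPM. Their median difference of responses was 0.70, with 12 of 13 above 0 and 0 called, and 0.17 without co-cultured early lesion replicate 1, the library with the highest fibroblast sum and, among co-cultured early lesion cells, the highest mitosis sum. The 7 neutrophil markers tested summed to 172, 179.9 and 184 CPM and 315, 242 and 239 CPM in early lesion cells. In primary tumor cells they summed to 68.9, 92.3 and 60.1 CPM and 125, 132 and 73.7 CPM, while the defining neutrophil gene Ly6g was at 0 in all 12 libraries. The T cell gene Cd3g was also at 0 in all 12. The 4 lymphocyte markers tested, of 12 listed, summed to 26.75 to 36.35 CPM in mono-cultured and 18.78 to 28.79 CPM in co-cultured early lesion cells. Primary tumor cells had 2.21 to 4.13 CPM alone and 2.43 to 3.53 CPM with macrophages. Exons of Hk1, Ube2c, Dusp5, Jun, Lats2, Mylk, Hadha, Itgav, Krt5, Nr2f1, Tk1, Tgfb2, Tgfb3, Tgfbr3, Notch2 and Erbb2 overlap another annotated gene, so their counts carry the limit given for Nav1. The part of fibroblasts or of other cells in the differences described was not tested. The fit without co-cultured early lesion replicate 1 called 113 genes higher and 70 lower, with all 21 calls among them. It kept mono-cultured early lesion libraries with fibroblast sums of 2212 and 1853 CPM, so it is no test of the part of fibroblasts.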

How the data were processed

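RNA of sorted or mono-cultured cells was sequenced from poly(A)-selected NEBNext Ultra libraries, per the labels' protocols. The authors deposited raw read counts per gene symbol in 1 table for each experiment, and bcl2fastq 2.17 and the mm10 build are named in the submitters' processing notes. Aligner and counting strand were not given in the sources used here. The tables were joined by symbol, and 27 rows whose symbol had become a date were left out (0.161 to 0.195% of counts), leaving 32517 symbols.

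The 12 mammary libraries (19.7 to 43.7 M counts, 2.86 to 3.52% mitochondrially encoded) were fitted together in edgeR 4.0.16 (R 4.3.3) with 4 group means, filterByExpr (minimum count 10), TMM factors and robust quasi-likelihood dispersion, leaving 15262 genes. Both responses and their difference are contrasts of that fit, with Benjamini-Hochberg adjustment across those genes. Grip2 took 0.0234 to 0.0739% of counts in early lesion and 1.08 to 7.38% in primary tumor libraries. The SE of a log2 change is its size divided by the square root of its F statistic. CPM are counts per 1e+06 after TMM. The macrophage partner level is the mean CPM of the macrophages of the same co-culture, over genes other than mitochondrially encoded ones and Grip2. Replicates are labelled as biological, and nothing says whether they came from separate animals, so p-values measure the spread between these samples. Same-numbered libraries deviated together in the primary tumor experiment (correlations 0.321, 0.226 and 0.313) and less evenly in the early lesion one (0.273, 0.209 and 0.0533). The number was therefore also used as a block, in the primary tumor experiment alone or in both. Other alternatives were RLE factors, no filter, DESeq2 1.42.0, limma 3.58.1 voom, leaving out each library, and leaving out genes high in macrophages. The code was tested on simulated data, with changes set only in co-cultured early lesion cells. For the interaction it recovered 25.4% of genes changed 1.5-fold, 71.6% of those changed 2-fold and 83.3% of those changed 4-fold. Of its calls 8.4% were false.

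Genes were named by rule: up to 10 called genes in each direction with the largest difference, at least 10 CPM in 1 group, replicates apart in 1 experiment, no carry-over candidate and no provisional symbol, filled to 5 by unadjusted p, the called carry-over candidates, the study's genes, and for each list the 3 members with the smallest p. Called genes outside the rule, and a few list members (Cdk1, Ube2c, Isg15, Oas1a, Egln3, Slc16a3, Hadha), were added after their values were seen. Not every gene the rule picks is reported here. The members and lists were chosen with earlier results of these data known. Gene positions are from GENCODE vM21 (mm10) and promoters from RefSeq.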

Additional observations from a re-analysis of the deposited data

Results flagged for a closer look

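The 21 genes whose interaction term passed edgeR's quasi-likelihood test (adjusted p under 0.05, difference of the early lesion and primary tumor responses on the log2 scale, n = 3 libraries per group) are listed here because that term tests the difference between the stages itself. The 15 higher ones were Ces1g at 2.65, F5 at 2.41, Chad at 2.08, Rtp4 at 1.99, Timp3 at 1.04, Edil3 at 0.96, Cpt1a at 0.88, Nav1 at 0.86, Bcl11a at 0.79, Trpv4 at 0.70, Myo1d at 0.51, Trp53inp2 at 0.47, Cd24a at 0.47, Il6st at 0.47 and Gpalpp1 at 0.44. The 6 lower ones were Apoe at -1.88, Exoc3l4 at -1.35, Fam174b at -1.16, E130012A19Rik at -0.95, Dll1 at -0.67 and Tysnd1 at -0.44. Stage and experiment cannot be told apart for any of them. No group had the 4 samples that a test for an outlying library needs.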

How the results depend on the processing

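The interaction counts of 15 higher and 6 lower genes moved little with RLE normalization (13 and 6), limma voom (17 and 7), dispersion without robust estimation (12 and 4) or without mitochondrially encoded genes and Grip2 (12 and 5), and without genes at least 5 times higher in the macrophages they were 16 and 5. Without a filter on low counts they were 28 and 7. DESeq2 called 203 and 123, and 352 genes for the early lesion and 1365 for the primary tumor response, against 67 and 666. The replicate block in both experiments gave 528 and 600, with 1114 and 2214 for the responses. In the early lesion experiment the same-number correlations were 0.273, 0.209 and 0.0533, and those between different numbers lay between -0.267 and 0.0852. Whether the replicate numbers of either experiment mark shared material is not known. With both blocks 23 of 29 mitosis and 24 of 28 replication genes were called lower (3.93% of all genes), and the mitosis sum of each co-cultured early lesion library lay below the mono-cultured one of its number. The replicate block in the primary tumor experiment alone gave 143 and 106, with 256 and 1439. A test for a difference of at least 0.5 on the log2 scale gave 0 and 0. The 6 primary tumor libraries alone gave 226 calls and the 6 early lesion libraries alone 76. The causes of these shifts were not tested. Fits with fewer libraries have fewer degrees of freedom, and the part of this was not tested either.

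Leaving out 1 library at a time gave 7 to 113 higher and 2 to 70 lower interaction calls, 17 to 452 early lesion calls and 132 to 980 primary tumor calls. The highest counts came without co-cultured early lesion replicate 1. Higher counts of 7 to 9 came without mono-cultured early lesion replicate 1 or 2, co-cultured early lesion replicate 2 or 3, mono-cultured primary tumor replicate 2 or co-cultured primary tumor replicate 3, and 28 and 35 without mono-cultured primary tumor replicate 3 or co-cultured replicate 1. Of the 21 calls, 13 were lost without mono-cultured primary tumor replicate 2 and 11 without co-cultured early lesion replicate 2. Outside these fits 6 calls were lost in at least 1 alternative, Chad, Il6st, Tysnd1, F5, Dll1 and Gpalpp1, with edgeR or limma adjusted p from 0.0502 to 0.145.

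Differences near 0 changed sign when a library was left out. Over these fits Tgfbr2 ranged from -0.0904 to 0.0488 (also 0.0315, 0.0073, 0.04 and 0.0183), Cdkn1b from -0.0485 to 0.0484 (also 0.0164, 0.0481 and 0.0216), Erbb2 from -0.4294 to 0.1745 (also 0.1717), Tgfb1 from -0.181 to 0.0562 (also 0.023) and H2-Eb1 from -0.0396 to 0.3949 (also -0.0046). With 3 libraries per group and a response difference that adds the error of 4 group means, a gene that did not pass is not shown to respond alike in both stages.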
